A study of Mus musculus with 16 samples.

Results

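This account concerns 10 genes of cholesterol efflux and of the liver X receptor (LXR) pathway, chosen by name among the 48397 gene symbols of the count files. They are the transporters *Abca1*, *Abcg1*, *Abcg4* and *Abca7*, the receptors *Nr1h2* and *Nr1h3*, the LXR targets *Srebf1* and *Mylip*, and the lipid carriers *Apoe* and *Clu*. All 10 had counts in every library and all 10 were among the 17038 genes tested. RNA was sequenced from primary hippocampal neurons of wild-type CD1 mouse pups of postnatal days 0 to 2. The cultures received cytosine arabinoside at 3 days *in vitro* (DIV) to limit non-neuronal growth, were treated at 10 and again at 13 DIV, and were collected at 17 DIV. The apoE2, apoE3 and apoE4 groups received conditioned medium holding lipoproteins of that human isoform, made by immortalized astrocytes of mice homozygous for the human ε2, ε3 or ε4 allele in place of mouse *Apoe*. The control group received medium of *Apoe*-/- astrocytes. Every medium was concentrated 10-fold, added at 1 part in 10, and came from astrocytes exposed to the oxysterol 25-hydroxycholesterol, itself an LXR ligand. The media of all 4 groups were made this way, and how much of the oxysterol each carried to the neurons is not stated. Each group has 4 libraries, described as separate neuronal cultures and numbered 1 to 4. The neurons carried their own mouse *Apoe*, so the *Apoe* counts are the transcript of the cultured cells and not the added human protein.

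LXRα (*Nr1h3*) and LXRβ (*Nr1h2*) are nuclear receptors that bind oxysterols, pair with a retinoid X receptor and switch on genes that move cholesterol out of cells. ABCA1 loads lipid onto lipid-poor apoE, ABCG1 and ABCG4 pass sterol to particles that already hold lipid, SREBP-1c from *Srebf1* drives fatty acid synthesis, and the ubiquitin ligase IDOL from *Mylip* removes LDL receptors. In brain, astrocytes are the main makers of apoE and clusterin, and neurons take up the particles.

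LXR and its partner bind a DR4 element, a direct repeat of AGGTCA with 4 bases between the repeats. RefSeq promoter windows of 300 bases (250 before and 50 after a start site, GRCm38.p6) were matched for 7 of the 10 genes, in 12 windows. *Abcg1*, *Abcg4* and *Clu* had no entry. The windows of *Abca1* and of the innermost of the 3 *Srebf1* start sites are shown because they were the ones among the 12 with a match to that element (AGGTCA, any 4 bases, AGGTCA) at no more than 3 mismatches over its 12 fixed bases. Capitals mark that match, which lies on the strand opposite to the gene in both windows. The *Abca1* window is chr4:53159846-53160145 and the *Srebf1* window is chr11:60210422-60210721, both minus strand and printed 5′ to 3′ in the direction of the gene.
Abca1: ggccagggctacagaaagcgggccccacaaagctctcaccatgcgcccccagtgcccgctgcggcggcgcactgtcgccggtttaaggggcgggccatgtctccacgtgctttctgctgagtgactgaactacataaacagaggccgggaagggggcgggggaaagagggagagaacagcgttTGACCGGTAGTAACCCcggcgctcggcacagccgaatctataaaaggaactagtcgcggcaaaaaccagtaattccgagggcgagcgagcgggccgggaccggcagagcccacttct
Srebf1: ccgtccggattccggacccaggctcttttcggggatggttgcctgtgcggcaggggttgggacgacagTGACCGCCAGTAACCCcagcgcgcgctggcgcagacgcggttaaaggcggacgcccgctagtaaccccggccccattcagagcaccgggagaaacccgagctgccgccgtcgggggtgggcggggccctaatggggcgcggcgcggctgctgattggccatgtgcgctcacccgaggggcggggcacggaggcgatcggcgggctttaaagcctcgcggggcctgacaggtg

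Read on the opposite strand, the *Abca1* match was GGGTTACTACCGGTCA and the *Srebf1* match was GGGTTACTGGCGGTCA. The end of the match farther from the start site lay 67 bases before it in *Abca1* and 182 bases before it in *Srebf1*. The sites were identical at 14 of 16 positions. A match this loose was common, since 21.9% of all 32851 promoter windows held one, and it is a description of letters and not of binding. The single half-site AGGTCA, which forms each repeat of the DR4 and was searched on both strands like the other motifs, was in none of the 12 windows and in 16.3% of all. The E-box CACGTG was in the *Abca1* window alone of the 12 (7.15% of all windows), and the GC box GGGCGG was in the *Abca1*, *Abca7* and *Mylip* windows and the inner pair of *Srebf1* windows (35.7% of all).

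Compared per length of exon, the 10 genes spanned a wide range. *Apoe* had the highest level, at 536 RPKM, that is CPM (a gene's counts scaled to the size of the library) per kilobase of exon, as the mean of the 16 libraries, above 99.8% of the tested genes with a known length. *Clu* (clusterin, another secreted lipid carrier) followed at 98.7, then *Abca1* at 22.0 and *Srebf1* at 20.3. *Nr1h2* was at 8.76, *Abcg1* at 7.56, *Abcg4* at 6.79, *Abca7* at 3.84 and *Mylip* at 3.03. *Nr1h3* was lowest at 0.705, so LXRβ was the more abundant receptor transcript of the cultures. In the control group *Apoe* stood above *Clu*, *Clu* above *Abca1*, *Abcg4* above *Abca7* and *Mylip* above *Nr1h3* without overlap of the libraries. The remaining neighbours in the order overlapped. In the apoE3 and apoE4 groups the ranges of *Apoe* and *Clu*, and of *Clu* and *Abca1*, overlapped too, as did those of *Abcg4* and *Abca7* in the apoE3 group.

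**Figure D1:**
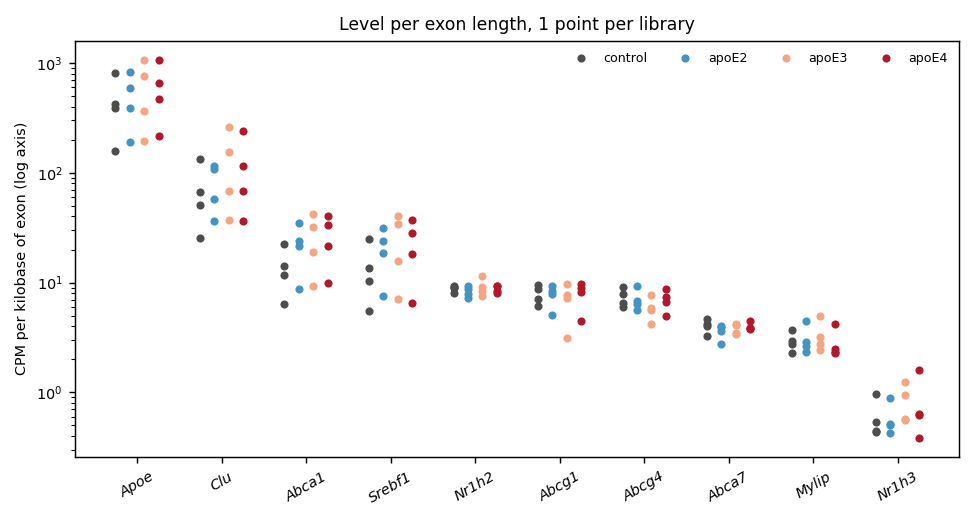
Level of each gene in CPM per kilobase of exon (log axis), with 1 point per library and the 4 groups side by side in 4 colours. *Apoe* averages 536 and *Nr1h3* 0.705, and for each gene the points of the 4 groups overlap.

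The libraries held between 14087723 and 34248172 counts on genes. Of the reads of a library, 38.4 to 73.7% were assigned to no single gene, those not aligned included. Libraries of the same replicate number moved together across the 4 groups, and this set most of the spread of the 10 genes. Of the variance of log2 CPM (scaled by TMM), the number accounted for 89.9% in *Apoe*, 85.7% in *Clu*, 84.3% in *Srebf1* and 74.9% in *Abca1*, and for 37.5% in *Abca7*, the lowest of the 10, beside a median of 56.1% over the tested genes. The treatment group accounted for 3.67% in *Apoe* to 18.8% in *Abcg4*, beside a median of 14.4%. Number 2 had the lowest mean of *Abca1*, *Srebf1*, *Apoe* and *Clu* and the highest of *Abcg1*, *Abcg4* and *Mylip*. *Apoe*, for example, averaged 405 CPM in the libraries numbered 2 and 1886 in those numbered 4. For this reason each comparison was fitted without and with the replicate number as a block, and a sentence that names the block gives the second fit.

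The first question was whether lipoproteins of each isoform changed these genes against medium without apoE. *Abca1*, *Srebf1* and *Clu* were higher in most treated libraries than in the control of the same number, by 1.56- to 1.82-fold with apoE3 and apoE4 once the block was included. Without the block, edgeR's quasi-likelihood test with Benjamini-Hochberg adjustment called none of the 10 genes in any comparison with control. The background, the share called among all tested genes, was 0% for apoE2, 0.00587% for apoE3, 0.194% for apoE4 and 0% for the 3 isoforms combined. None of the 10 had an unadjusted p under 0.05 either (background 2.79%, 6.43%, 3.3% and 3.91%). DESeq2 without the block called none of the 10, beside 29, 60, 91 and 17 of all 17038 genes in the same order. With the block, none was called with apoE2 (1.73% of all genes), 4 with apoE3 (11.7%), 3 with apoE4 (3.3%) and 3 with the isoforms combined (5.93%). The study's own criterion asks for a 2-fold change and a p under 0.05 before adjustment. The test that gave the study its p was not run here, and the criterion was applied to edgeR's fold change and p. In that form, none of the 10 met the criterion without the block (background 0.722%, 1.96%, 1.15% and 0.763% in the same order) or with it (1.56%, 4.77%, 2.5% and 1.71%). The comparisons with control use the same 4 control libraries.

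**Figure D2:**
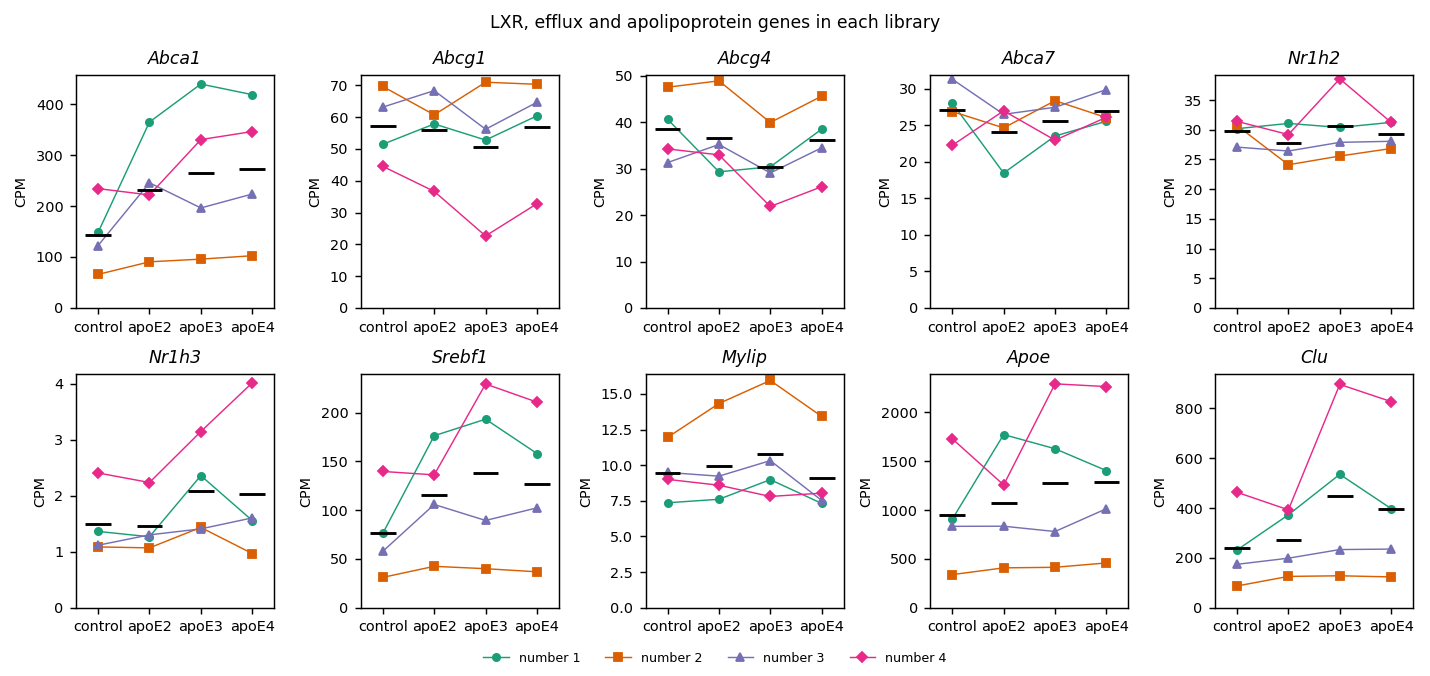
CPM of each gene (vertical axis, from 0, a scale for each panel) in the 4 groups (horizontal axis). Coloured points are single libraries, lines join libraries of the same replicate number, and black bars are group means (n = 4). For *Abca1* the lines rise from control to apoE3 and apoE4 in each number, while the ranges of the groups overlap.

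*Abca1*, the transporter that lipidates apoE, had 148, 65.8, 122 and 234 CPM in control libraries 1 to 4. It had 365, 90.5, 246 and 222 CPM with apoE2, 439, 95.8, 196 and 330 with apoE3, and 419, 102, 224 and 346 with apoE4. Number 2 was lowest in each group, the groups overlapped, and the treated library exceeded the control of its number in 11 of 12 pairs, the exception being apoE2 number 4 at 0.947 times the control. Scaled by library totals instead of TMM, all 12 pairs were higher, and this pair stood at 1.06. With apoE3 the log2 fold change was 0.90 (SE 0.54, edgeR adjusted p = 0.803), and 0.80 (SE 0.17, adjusted p = 0.00867) with the block, a fold of 1.74 with a 95% interval from 1.35 to 2.24. With apoE4 it was 0.93 (SE 0.54, edgeR adjusted p = 1.00), and 0.86 (SE 0.17, adjusted p = 0.0113) with the block, a fold of 1.82. With apoE2 it was 0.69 (SE 0.54) and 0.66 (SE 0.17) with the block, and neither passed (adjusted p = 1.00 and 0.0687, edgeR). Leaving out 1 library moved the values without the block between 0.38 and 1.04 for apoE2, 0.54 and 1.24 for apoE3, and 0.65 and 1.28 for apoE4, each lowest without the treated replicate 1 and highest without control replicate 4. *Abca1* lies on chromosome 4 at 53030787 to 53159895 (GRCm38), and no other annotated gene overlaps its exons.

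*Srebf1*, the lipogenic transcription factor gene, was also lowest in number 2 of each group. The control libraries had 76.2, 31.1, 57.8 and 140 CPM, those with apoE2 176, 42.4, 106 and 136, those with apoE3 193, 40.0, 89.4 and 229, and those with apoE4 158, 36.8, 102 and 211. It too was above its own control in 11 of 12 pairs, the exception again being apoE2 number 4 (12 of 12 by library totals), and the groups overlapped. The log2 fold change with the block was 0.76 (SE 0.16, edgeR adjusted p = 0.00873) with apoE3 and 0.67 (SE 0.16, adjusted p = 0.0357) with apoE4. With apoE2 it was 0.63 (SE 0.16), which did not pass (edgeR adjusted p = 0.0687). Without the block the values were 0.86 for apoE3, 0.74 for apoE4 and 0.60 for apoE2, with SEs near 0.62. Leaving out 1 library gave 0.49 to 1.33, 0.37 to 1.21 and 0.32 to 1.07 in the same order, each highest without control replicate 4. Of the exon bases of *Srebf1*, 1.17% lie under a microRNA gene on the same strand and 1.94% under *Rai1* on the other, and whether the counting used strand is not stated.

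*Clu* had 232, 87.3, 174 and 463 CPM in the control libraries, 373, 126, 199 and 393 with apoE2, 536, 128, 234 and 897 with apoE3, and 398, 124, 235 and 828 with apoE4. Each apoE3 and apoE4 library exceeded the control of its number, as did 3 of 4 apoE2 libraries, with number 4 at 0.848 times the control. Among all tested genes, 18.7% were higher in all 4 apoE3 pairs and 14.9% in all 4 apoE4 pairs. The log2 fold change of *Clu* with the block was 0.79 (SE 0.16, edgeR adjusted p = 0.00591) with apoE3, 0.64 (SE 0.16, adjusted p = 0.0381) with apoE4 and 0.31 (SE 0.16, adjusted p = 0.429) with apoE2. Without the block they were 0.91, 0.73 and 0.19, with SEs of 0.67 and no call, and single libraries of number 4 moved them: the apoE4 value was 0.07 without apoE4 replicate 4 and 1.27 without control replicate 4.

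*Apoe* is a known LXR target of astrocytes and macrophages. Its control libraries had 907, 339, 834 and 1730 CPM, those with apoE2 1774, 408, 835 and 1258, those with apoE3 1628, 414, 781 and 2293, and those with apoE4 1404, 459, 1014 and 2265. It was above the control in all 4 apoE4 pairs, as were 14.9% of all tested genes. With apoE2 and with apoE3 it was above the control in 3 of 4 pairs. The log2 fold changes with the block were 0.21, 0.35 and 0.42 with apoE2, apoE3 and apoE4 (SE 0.18 each, edgeR adjusted p = 0.687, 0.206 and 0.236), so the interval of the apoE4 fold ran from 1.03 to 1.73 while the adjusted p missed the threshold.

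*Abcg1* and *Abcg4*, the half-transporters that export sterol to lipidated particles, did not rise. *Abcg4* had 40.6, 47.5, 31.3 and 34.3 CPM in the control libraries, 29.3, 48.9, 35.2 and 33.0 with apoE2, 30.4, 39.9, 29.1 and 21.9 with apoE3, and 38.5, 45.6, 34.5 and 26.1 with apoE4. Each of the 4 apoE3 libraries was below its control, at 0.638 to 0.928 times its value, and the blocked difference was -0.35 on the log2 scale (SE 0.11, edgeR adjusted p = 0.0483), the one lower call among the 10 genes. Leaving out any one replicate number ended that call, with the log2 fold change between -0.43 and -0.27. *Abcg1* had 51.5, 69.6, 63.1 and 44.5 CPM in the control libraries and 52.8, 71.0, 56.2 and 22.6 with apoE3. The number 4 library of the apoE3 group was its lowest value, and the blocked log2 fold changes were -0.05 (SE 0.13), -0.25 (SE 0.13) and -0.05 (SE 0.13) with apoE2, apoE3 and apoE4. For apoE3 the 95% interval of the *Abcg1* fold ran from 0.692 to 1.02. *Abca7*, a relative of *Abca1* linked to lipid handling and phagocytosis, ranged from 18.5 CPM in an apoE2 library to 31.3 in a control library, and its blocked log2 fold changes ran from -0.16 to -0.01.

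Neither receptor gene was called in any comparison. *Nr1h2* ranged from 24.1 to 38.6 CPM over the 16 libraries, with blocked log2 fold changes of -0.12, 0.02 and -0.03 (SE 0.09 each) with apoE2, apoE3 and apoE4. The blocked 95% intervals of its fold lay between 0.809 and 1.16 in the 3 comparisons. *Nr1h3* was sparse, at 1.36, 1.09, 1.12 and 2.41 CPM in the control libraries, 2.36, 1.43, 1.41 and 3.15 with apoE3, and 1.56, 0.969, 1.61 and 4.02 with apoE4. Each apoE3 library was above its control, by 1.26 to 1.73 times, but the blocked log2 fold change of 0.48 (SE 0.22) did not pass adjustment (edgeR adjusted p = 0.173). Among all tested genes, 18.7% were higher in all 4 apoE3 pairs. *Mylip* had 7.36, 11.95, 9.49 and 9.01 CPM in the control libraries and 8.99, 15.9, 10.3 and 7.81 with apoE3, and its blocked log2 fold changes of 0.05, 0.16 and -0.08 had SEs of 0.11. Of the LXR targets among the 10, the blocked fit thus called *Abca1* and *Srebf1* and did not call *Abcg1*, *Mylip* or *Apoe*, and no test of the difference between them was made.

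**Figure D3:**
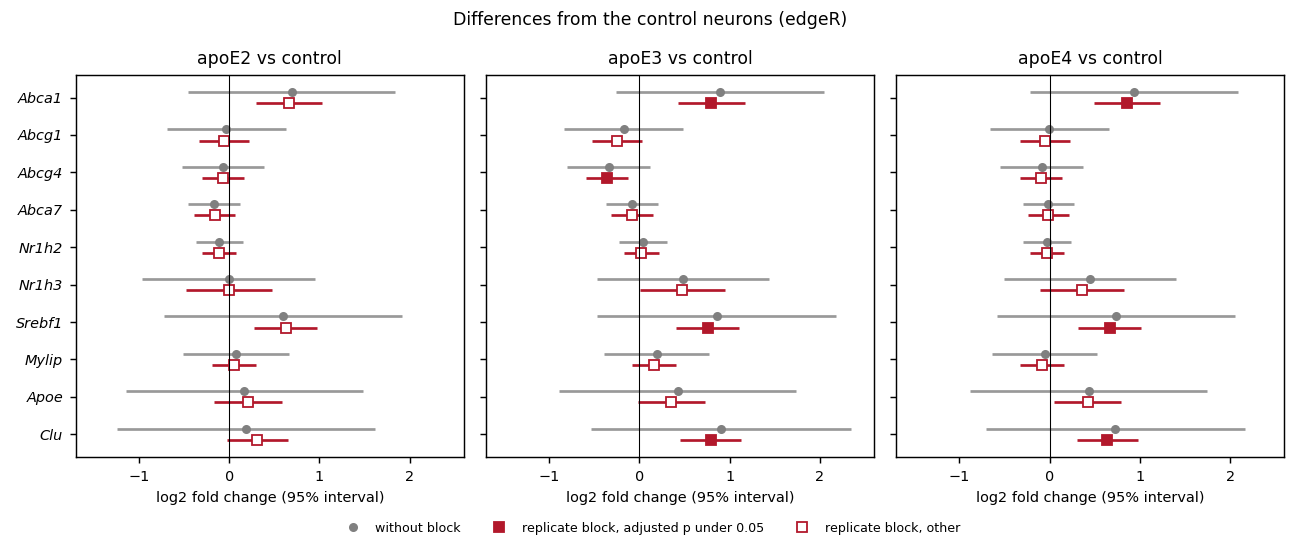
Log2 fold change of each gene against control with its 95% interval (horizontal axis), in 3 panels for apoE2, apoE3 and apoE4. Grey circles are the fit without the block, red squares the fit with the replicate block, filled where the adjusted p was under 0.05. The grey intervals all cross 0, and the filled squares are *Abca1*, *Srebf1* and *Clu* with apoE3 and apoE4 and *Abcg4* with apoE3.

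The median over the 10 genes of the blocked log2 fold change came to 0.02 for apoE2, 0.26 for apoE3 and 0.17 for apoE4, beside medians over all tested genes of 0.01, 0.02 and 0.00. Over the 12 pairs with control, *Abca1*, *Srebf1* and *Clu* were each higher in 11, *Apoe* in 10 and *Nr1h3* in 8. *Abcg1* was higher in 7, *Nr1h2* and *Mylip* in 6, *Abca7* in 4 and *Abcg4* in 3. By library totals *Abcg1* was higher in 3 of the 12, so its direction depended on the scaling. With the 3 isoforms combined the blocked log2 fold change was 0.77 (SE 0.15, edgeR adjusted p = 0.00705) for *Abca1*, 0.68 (SE 0.14, adjusted p = 0.0106) for *Srebf1* and 0.58 (SE 0.13, adjusted p = 0.0198) for *Clu*. Without the libraries of number 1 the blocked fit called none of the 10 genes, with log2 fold changes for the isoforms combined of 0.58, 0.53 and 0.48 for *Abca1*, *Srebf1* and *Clu*. Calls over all genes fell in that fit too, from 1010 of 17038 to 64 of 17445. Without number 3, these 3 genes were called with apoE3 only. The share of reads assigned to no gene, those not aligned included, moved in the same direction as *Abca1* in 9 of the 12 pairs with control. *Abca1* was higher in 11 of the 12, so the count of matches mostly reflects how often the share rose. In number 1 the share was 61.8% in the control and 71.6 to 73.7% in the treated libraries. In number 3 the share was 51.4% in the control and 55.1 to 65.0% in the treated libraries. With apoE2 in number 4, where *Abca1* was below its control, the share was 38.4% against 64.7%. The 3 pairs of opposite direction were apoE3 number 2, apoE4 number 2 and apoE4 number 4. The part of this share in the differences was not tested.

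The next question was whether the isoforms differed. None of the 10 genes was called between apoE4 and apoE3, apoE4 and apoE2 or apoE3 and apoE2, by edgeR without the block (0.147%, 0.252% and 0% of all genes) or with it (1.76%, 4.44% and 1.31%). DESeq2 called none of the 10 either, beside 69, 163 and 9 of all 17038 genes without the block and 703, 1242 and 726 with it. Without the block none had an unadjusted p under 0.05 (background 4.7%, 5.34% and 2.28%). With the block that unadjusted level (background 16.3%, 18% and 15.9%) was passed by *Clu* (log2 difference 0.48, SE 0.16, edgeR adjusted p = 0.151), *Nr1h3* (0.48, SE 0.22, adjusted p = 0.303) and *Abcg4* (-0.29, SE 0.11, adjusted p = 0.214) for apoE3 against apoE2, and by *Abcg4* (0.26, SE 0.11, adjusted p = 0.262) for apoE4 against apoE3. For *Abca1* the blocked fold of apoE4 over apoE3 was 1.04, with a 95% interval from 0.813 to 1.34, and that of apoE4 over apoE2 was 1.15, with an interval from 0.894 to 1.48. For *Srebf1* they were 0.939 (0.740 to 1.19) and 1.03 (0.809 to 1.30).

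The cultures are mixed, and markers of other cells moved with these results. All 10 neuronal markers, such as *Map2* and *Snap25*, had at least 624 counts in every library, and all 10 astrocyte markers at least 127, among them *Gfap* at 189 to 3449 CPM. The summed astrocyte markers ranged from 1430 to 3216 CPM in the control libraries, 1330 to 3208 with apoE2, 1720 to 6694 with apoE3 and 1590 to 5450 with apoE4. Without the block no marker was called, beside 0.00587%, 0.194% and 0% of all tested genes with apoE3, apoE4 and apoE2. With the block, 9 of the 10 astrocyte markers were called higher with apoE3, 4 with apoE4 and none with apoE2. That stood beside 4, 3 and no calls among the 10 LXR and efflux genes and 11.7%, 3.3% and 1.73% of all tested genes. The median blocked log2 fold change of the astrocyte markers was 0.79, 0.61 and 0.39 in the same order. *Gfap* was at 0.75 with apoE2 (SE 0.18, edgeR adjusted p = 0.0532). *Slc1a2*, a glial glutamate transporter, was the exception with apoE3, at -0.24 on the log2 scale (edgeR adjusted p = 0.228). With apoE2 *Slc1a2* was at -0.39. Oligodendrocyte lineage markers were called higher in 5 of 10 with apoE3 and 1 of 10 with apoE4, fibroblast and meningeal markers in 2 and 1 of 6. No microglial marker of 10 and no endothelial or mural marker of 6 tested was called. Of the neuronal markers, *Tubb3* was called higher and *Gad1* and *Snap25* lower with apoE3. All 10 microglial markers were detected, *Tmem119* being at 0 in 1 library. The part of the astrocyte and oligodendrocyte lineage markers in the changes of *Abca1*, *Srebf1*, *Clu* and *Abcg4* was not tested. In RNA of whole cultures, more cells of a type and more RNA per cell cannot be told apart. The study also followed astrocytes in the cultures by GFAP staining, which is not analysed here.

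Within replicate numbers the summed astrocyte markers stood at 1.48, 0.930, 1.17 and 0.946 times the control with apoE2, at 2.07, 1.20, 1.34 and 2.08 with apoE3 and at 1.65, 1.11, 1.46 and 1.69 with apoE4. *Abca1* stood at 2.46, 1.37, 2.01 and 0.947 times, at 2.96, 1.46, 1.603 and 1.41, and at 2.82, 1.56, 1.83 and 1.48. *Abca1* stood above the marker sum in numbers 1, 2 and 3 and below it in number 4 with apoE3 and apoE4, but the sum includes the abundant *Slc1a2*, which was lower than control in most pairs. *Gfap* alone stood above *Abca1* in every apoE3 pair, at 4.46, 1.87, 2.20 and 2.68 times the control. It stood at 2.54, 1.74, 1.67 and 1.07 times for apoE2 and at 2.70, 1.58, 1.92 and 1.93 times for apoE4, above *Abca1* in all but apoE2 number 3 and apoE4 number 1. Of the 10 markers, 1, 3, 0 and 3 stood above *Abca1* in apoE2 numbers 1 to 4, 1, 3, 1 and 9 in those of apoE3, and 0, 1, 1 and 8 in those of apoE4, so that most were below it in numbers 1, 2 and 3 and most above it in number 4 with apoE3 and apoE4. As a description over the 16 libraries, which are not independent of each other within a number, Pearson's r of log2 CPM with the log2 marker sum was 0.89 for *Abca1*, 0.93 for *Srebf1*, 0.92 for *Apoe*, 0.93 for *Clu* and -0.91 for *Abcg4*. About the mean of each number it was 0.78, 0.83, 0.79, 0.94 and -0.76.

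**Figure D4:**
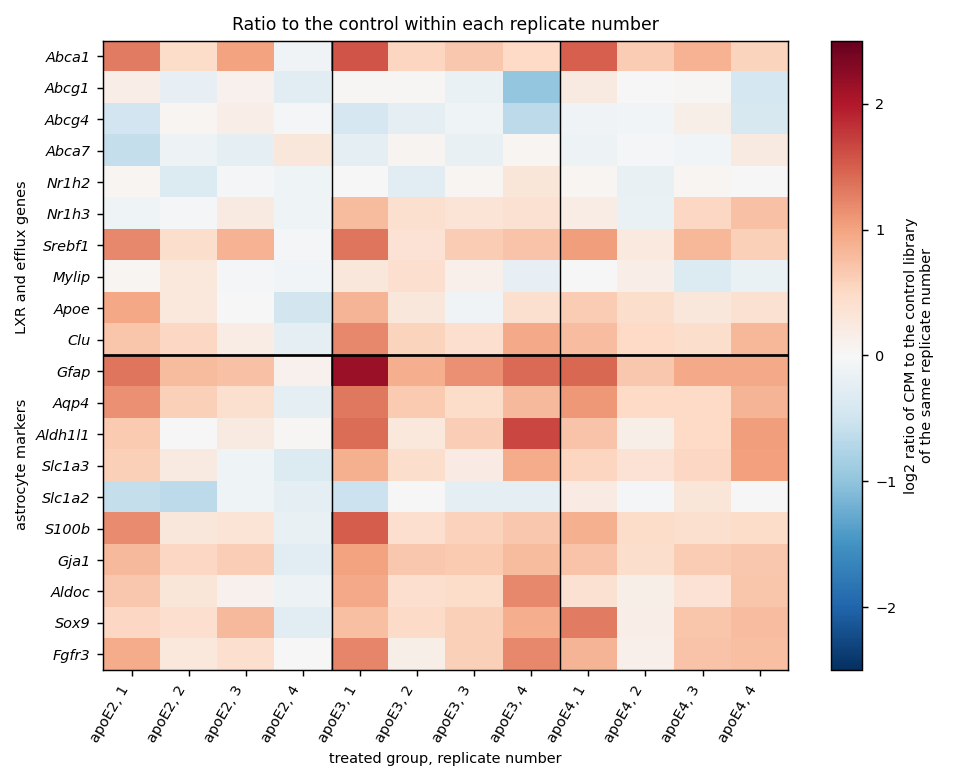
Log2 ratio of CPM in each treated library to the control library of its replicate number (colour; red is higher, blue lower), for 12 pairs in columns, the 10 LXR and efflux genes above the line and 10 astrocyte markers below it. *Abca1* and *Srebf1* are red in 11 of 12 columns, *Gfap* in 12, and the apoE2 number 4 column is pale or blue in most rows.

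Over the 16 libraries, some of the 10 genes varied together. *Srebf1* and *Apoe* (r = 0.97), *Apoe* and *Clu* (0.97) and *Abca1* and *Srebf1* (0.97) ran together, as did *Abcg1* and *Abcg4* (0.72). *Abcg1* ran against *Nr1h3* (-0.85), *Abcg4* against *Clu* (-0.82) and *Mylip* against *Srebf1* (-0.80). Part of this followed the replicate numbers. About the means of the numbers r was 0.96 for *Abca1* and *Srebf1*, the genes whose windows are printed above, 0.81 for *Srebf1* and *Apoe*, 0.86 for *Apoe* and *Clu*, 0.63 for *Abcg1* and *Abcg4* and -0.73 for *Abcg4* and *Clu*, but -0.31 for *Abcg1* and *Nr1h3* and 0.05 for *Mylip* and *Srebf1*. Of all tested genes, those most like *Abca1* were *Npas3*, *Srebf1*, *Bag3*, *Axl* and *Ntn1* (r = 0.95 to 0.97). Those most like *Srebf1* were *Lrig1*, *Vcam1*, *Ddo*, *Itga1* and *Sorbs3*, all at 0.99. Those most like *Apoe* were *BC064078*, *Ttyh2*, *Slc25a18*, *Plekhb1* and *Ifitm3*, and those most like *Clu* were *Pdpn*, *Lamb2*, *Gsn*, *Tmem63a* and *Mgst1*, all at 0.99.

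Of 19 other LXR target genes listed, 12 were tested. Without the block edgeR called none of them, nor any gene of the lists that follow. With it, 5 were called higher and 1 lower with apoE3, 1 higher with apoE4 and none with apoE2, where 11.7%, 3.3% and 1.73% of all genes were called. *Lbp*, a lipopolysaccharide-binding lipid transfer protein, had a blocked log2 fold change of 1.19 (SE 0.21, edgeR adjusted p = 0.00305) with apoE3 and 1.36 (SE 0.21, adjusted p = 0.00165) with apoE4. *Pltp*, which moves phospholipid between lipoproteins, rose by 0.64 (SE 0.15) and *Lpcat3*, which remodels phospholipids, by 0.37 (SE 0.10) with apoE3, while *Lpl*, the lipoprotein lipase, was at -0.78 (SE 0.21). The remaining pair of risers, named after their values were seen, were the desaturase genes *Scd1* (0.61, SE 0.18) and *Scd2* (0.42, SE 0.12). The sterol transporters *Abcg5* and *Abcg8* were below the filter, with at most 2 counts in a library. The list's median blocked log2 fold change came to -0.02 for apoE2, 0.41 for apoE3 and 0.20 for apoE4, beside 0.01, 0.02 and 0.00 over all tested genes.

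Among 19 LXR partners and coregulators, all tested, the blocked fit called 1 gene with apoE2, 2 with apoE3 and 1 with apoE4, where 1.73%, 11.7% and 3.3% of all genes were called, so with apoE3 the share was near the background. Of these, *Rxrg*, the retinoid X receptor γ gene, rose with apoE2 (blocked log2 fold change 0.73, SE 0.17) and apoE3 (0.95, SE 0.17), the corepressor subunit gene *Tbl1x* rose with apoE3 (0.21, SE 0.06) and its relative *Tbl1xr1* with apoE4 (0.42, SE 0.09). Of 15 other ABC lipid transporters tested, *Abcc1* (0.46, SE 0.08) and *Abca12* (1.29, SE 0.38) rose and *Abca5* fell (-0.32, SE 0.09) with apoE3, and none was called with apoE2 or apoE4. Of 13 genes of cholesterol storage and transport tested, *Lcat*, the enzyme that esterifies cholesterol on lipoproteins, rose with apoE3 (1.51, SE 0.31) and apoE4 (1.25, SE 0.31), and *Npc1* (0.39, SE 0.09) and *Npc2* (0.65, SE 0.15), which let cholesterol out of lysosomes, rose with apoE3. No gene was called by the blocked fit among 6 tested of oxysterol and sterol hydroxylation, 6 of SREBP processing and the 3 receptors degraded through IDOL. In these, with apoE3, the blocked log2 fold change was -0.52 (SE 0.18) for *Sult2b1* and -0.04 (SE 0.20) for *Cyp7b1*, which modify oxysterols. It was 0.04 (SE 0.08) for *Insig2* and -0.02 (SE 0.07) for *Mbtps1*, which hold back and cut SREBP. *Lrp8* and *Vldlr*, the receptor genes, stood at 0.23 (SE 0.08) and 0.03 (SE 0.10).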

How the data were processed

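RNA of 16 cultures (4 groups of 4) was depleted of ribosomal RNA and made into TruSeq libraries from 200 ng with 10 PCR cycles. The authors used STAR 2.5.0c for alignment to mm10 and HTSeq 0.6.0 for gene counts; the annotation and strand setting are not given in the sources used here. The deposited values are raw counts, and HTSeq's totals of reads not assigned to a gene were kept out of library sizes and tests. They were used only for the share of reads assigned to no gene, 38.4 to 73.7%, which includes reads not aligned. Groups and replicate numbers come from the sample labels. edgeR 4.0.16 (R 4.3.3) was run with TMM scaling, filterByExpr (minimum count 10, total 15, proportion 0.7), a quasi-likelihood test on a model of group means fitted to all 16 libraries, with Benjamini-Hochberg adjustment over 17038 genes in each of 7 comparisons and a call at an adjusted p under 0.05. The alternatives were another scaling, other filters, DESeq2 1.42.0, the compared groups alone, exact permutation, each library left out and the replicate number as a block. The numbers were taken to pair the samples, since deviations from group means correlated at 0.362 to 0.831 in all 24 same-number pairs (-0.736 to 0.569 in 72 others). These ranges overlap, and the pairs of number 1 correlated least, at 0.362 to 0.552. The labels do not say what a number shares. The steps were tested on simulated data. Levels use exon lengths of GENCODE M21; promoters are from RefSeq. The 10 genes, the lists and the naming rule (all 10 genes, the 5 genes most like a member, up to 4 called genes a list) were chosen with earlier results of these data known.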

Additional observations from a re-analysis of the deposited data

Results flagged for a closer look

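In 2 of 40 groups (10 genes in 4 groups of 4 libraries) a single library stood apart by Dixon's criterion, and chance flags about 1 in 20. *Abca7* was at 29.9 CPM in apoE4 replicate 3, beside 25.6 to 26.1 CPM in the other apoE4 libraries. *Mylip* was at 13.4 CPM in apoE4 replicate 2, beside 7.32 to 8.04 CPM in the others of that group. Number 2 had the highest *Mylip* of each group, at 11.95 to 15.9 CPM, so this library stands with those of its number, and the chance rate above takes no account of the numbers.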

How the results depend on the processing

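No direction of a called result turned under any alternative. Without the replicate block, edgeR called 0 of the 10 genes in each comparison, as did DESeq2's size factors, DESeq2, both other filters, the fit on the compared groups alone, exact permutation (smallest possible p 0.0286 between single groups) and each left-out library. The blocked fit called 4 genes with apoE3, 3 with apoE4 and 3 with the isoforms together; the block cut the common dispersion from 0.132 to 0.0178. Blocked fits with DESeq2's size factors and with DESeq2, both chosen after seeing the data, gave 4, 3 and 3 as well, and blocked DESeq2 called 2 with apoE2. Of all 17038 genes, blocked DESeq2 called 709, 2687, 962 and 1686 with apoE2, apoE3, apoE4 and together. The blocked fit with DESeq2's size factors called 279, 2020, 554 and 1024. The blocked fit without number 4 gave 2 genes with apoE2, 3 with apoE3, 3 with apoE4 and 3 together, where it called 714, 1473, 524 and 1188 of all 17257 genes (294, 1990, 563 and 1010 of 17038 with all numbers). Without number 2 it gave 3 with apoE3, 2 with apoE4 and 2 together (1866, 397 and 783 of 16571 genes), and without number 3 it gave 3 with apoE3 (777 of 16802). Without number 1 it called 0 of the 10 in each comparison, and 21, 420, 141 and 64 of all 17445 genes with apoE2, apoE3, apoE4 and together. The cause was not tested, though each of these fits has fewer libraries. With all 16 libraries, 1.96%, 1.15% and 0.763% of all tested genes met the study's criterion on edgeR's p with apoE3, apoE4 and the isoforms together. Leaving out 1 library gave 0 to 1 of the 10 genes at that criterion in each of these comparisons. The gene was *Abca1*, without apoE3 replicate 2 (log2 fold change 1.17), without apoE4 replicate 2 (1.21), or without control replicate 4 (1.28 with apoE4 and 1.19 together). Depth limits *Nr1h3* most.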
